A study of Anser cygnoides with 11 samples.

Results

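Lysosomes are acidic organelles in which proteases, glycosidases, sulfatases and lipid-degrading enzymes break down material taken up by endocytosis, phagocytosis or autophagy. Their limiting membrane is lined by heavily glycosylated proteins such as LAMP1 and LAMP2, and the transcription factor TFEB can raise the expression of many of their genes together. In kidney, tubule cells use lysosomes to degrade filtered proteins, and macrophages are another lysosome-rich cell type. The genes described here are 43 symbols chosen for these functions: 11 proteases, 11 glycosidases, 5 sulfatases, 8 proteins of lipid breakdown or export, 6 membrane proteins, and the pair GRN and TFEB. The symbols, like the related lists and the markers below, were chosen with earlier results of these data known. Their shares beside those of all tested rows are therefore description and not a test of the lists. A row of the deposited gene table was taken as a member when its gene name was one of these symbols, and the row with the highest mean stood for a symbol with several rows. In this way 32 of the 43 symbols were found among the 19275 rows of the table, and all 32 were among the 12252 rows tested.

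The samples were kidneys of 11 swan goose goslings (Anser cygnoides), 5 with visceral gout, in which urate is deposited on the viscera, and 6 healthy. Gout goslings had been chosen by typical lesions and serum findings, per the series' design text; age, sex, breed and batch are not given in the sources used here. Messenger RNA was selected by its poly(A) tail and sequenced, and the authors deposited FPKM, a fragment number corrected for the length of the transcript and the size of the library, with 1 column per gosling. FPKM levels can therefore be compared between genes, but the depth of the libraries is unknown, and no counting error can be given.

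The libraries carried the kidney transcription factor PAX2, at 7.23 to 10.0 FPKM in gout and 7.25 to 9.14 in control. Summed over all rows, gout libraries held between 229465 and 399990 FPKM and control libraries between 306484 and 390546, with gout replicates 3 and 2 at the bottom (229465 and 246944). Across all tested rows the median log2 fold change was -0.29, gout minus control, and limma with Benjamini-Hochberg adjustment called 771 rows lower (6.29%) and 85 higher (0.694%) at an adjusted p under 0.05. Quantile normalization moved that median to 0.01 and the calls to 245 lower (2%) and 226 higher, and upper quartile scaling gave 352 lower and 171 higher rows. The fold changes below are on the log2(FPKM + 1) scale, which understates changes of low genes, and are to be read against the median of -0.29. The tissue was taken whole, so fewer cells of a type and less RNA per cell cannot be told apart.

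In healthy kidney the lysosomal genes were mostly abundant transcripts. In control goslings 26 of the 32 had a mean above the median tested row (6.46 FPKM), and 11 were above 50 FPKM. CTSB, the cysteine protease cathepsin B, was highest at 248 ± 61.5 FPKM (SD, n = 6). It was followed by LAMP1 at 161 ± 38.8, NPC2, which carries cholesterol inside the lysosome, at 144 ± 57.5, LGMN, the asparaginyl endopeptidase legumain, at 124 ± 51.5, and CTSZ, the carboxypeptidase cathepsin Z, at 107 ± 36.5 FPKM. The SDs of neighbours in this order overlapped. These 5 genes made up 48.8% of the summed control FPKM of the 32. Proteases had a median control level of 90.4 FPKM and glycosidases one of 11.2, and 6 members (LAMP3, NPC1, MANBA, IDS, IDUA and CTSO) lay under 5 FPKM.

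Lysosomal transcripts took a smaller share of the library in gout kidney. The 32 genes summed to 1124, 605, 517, 772 and 1296 FPKM in gout replicates 1 to 5. The sums of the 6 control goslings ran from 1159 through a median of 1596 to 2029 FPKM, so that gout replicate 5 overlapped the controls. As a share of all FPKM of a library, which is independent of the column total, the genes made up 0.225% to 0.324% in gout and 0.356% to 0.542% in control, without overlap. The per-gosling median difference of the 32 genes from their control means was -1.17, -1.13, -0.86, -0.44 and -0.30 on the log2 scale in gout replicates 2, 3, 4, 1 and 5. Over all tested rows the same quantity was -0.46, -0.61, -0.42, 0.00 and 0.02. Every gout library thus lay lower for the lysosomal genes than for its rows as a whole, by 0.33 to 0.71. In the controls this difference, lysosomal genes minus all rows, ran from -0.24 (replicate 4) to 0.32 (replicate 1).

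**Figure D1:**
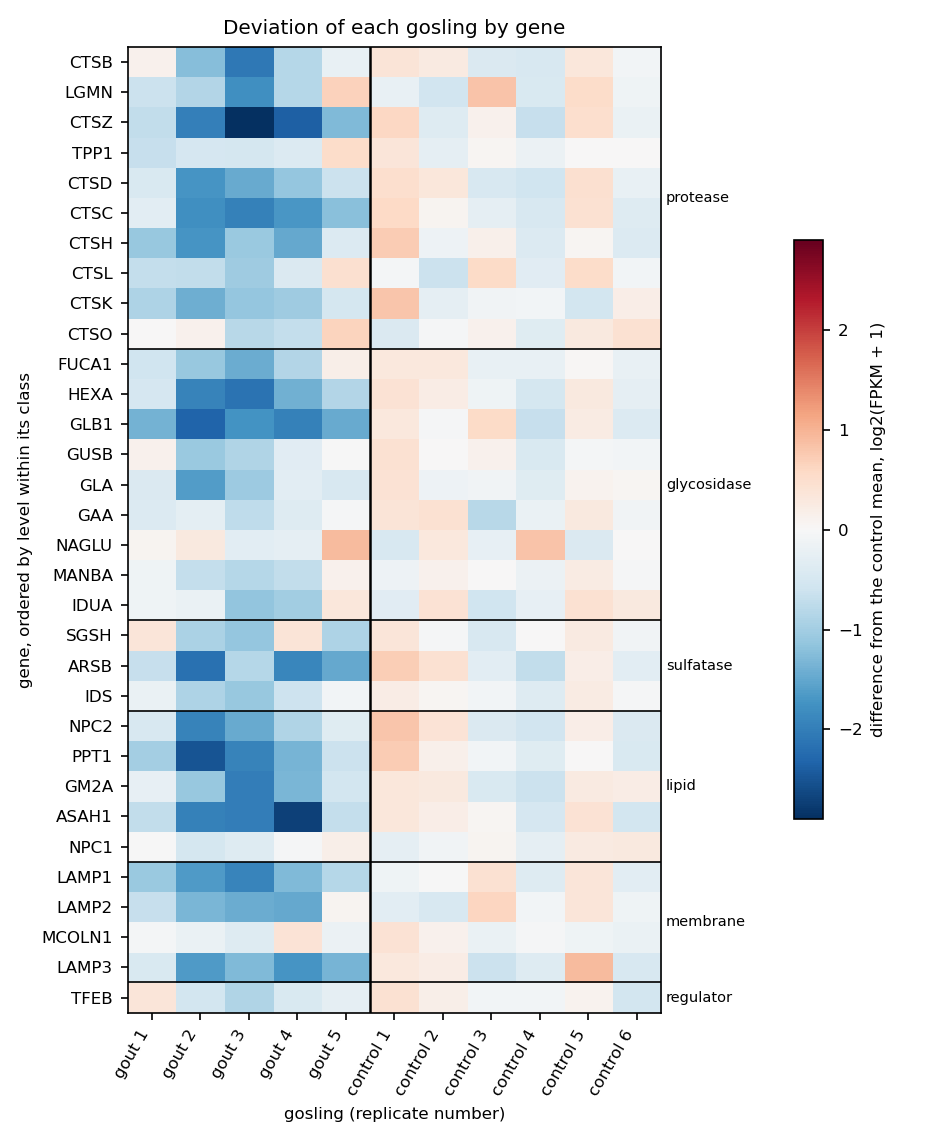
Difference of each gosling (columns, 5 gout left of the vertical line and 6 control right of it) from the control mean of each lysosomal gene (rows, grouped by class and ordered by control level), on the log2(FPKM + 1) scale; blue is lower and red higher. Gout replicates 2 and 3 hold the lowest value for 26 of the 32 genes, and gout replicates 1 and 5 are paler.

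Of the 32 genes, 12 (37.5%) fell in gout by limma over all tested rows, against 6.29% of all tested rows, 20 did not pass and 0 rose. At an unadjusted p under 0.05 the numbers were 19 lower and 0 higher. The share of all tested rows at that threshold is not given here. The unadjusted numbers, here and for the lists below, therefore have no background beside them and are description only. The median log2 fold change of the 32 was -0.81 against -0.29 for all tested rows, and 28 of the 32 lay below the latter. The genes that fell were 5 proteases, 2 glycosidases, 1 sulfatase, 2 lipid enzymes and 2 membrane proteins, and 11 of the 12 changed at least 2-fold. In 5 genes, CTSZ, GLB1, ASAH1, PPT1 and LAMP1, all 5 gout libraries lay below all 6 control libraries (15.6% of the members, against 4.55% of all tested rows). The list was chosen with earlier results of these data known, and the count rests on few goslings. It was 3, 7 or 6 without gout replicate 2, 3 or 4, and 7 or 4 without control replicate 1 or 5. Of all tested rows 2.20%, 3.29%, 2.63%, 3.23% and 2.15% were lower in these fits, in the same order. Without gout replicate 1 the count was 13 (10.6% of all tested rows), and without gout replicate 5 it was 16 (11.4%). The count was 1, GLB1, without gout replicates 2 and 3 together (0.770% of all tested rows), an alternative chosen after the data were seen. After quantile normalization 7 genes were lower (2% of all tested rows), each of them among the 12: CTSC, CTSZ, GLB1, HEXA, ASAH1, PPT1 and LAMP1.

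**Figure D2:**
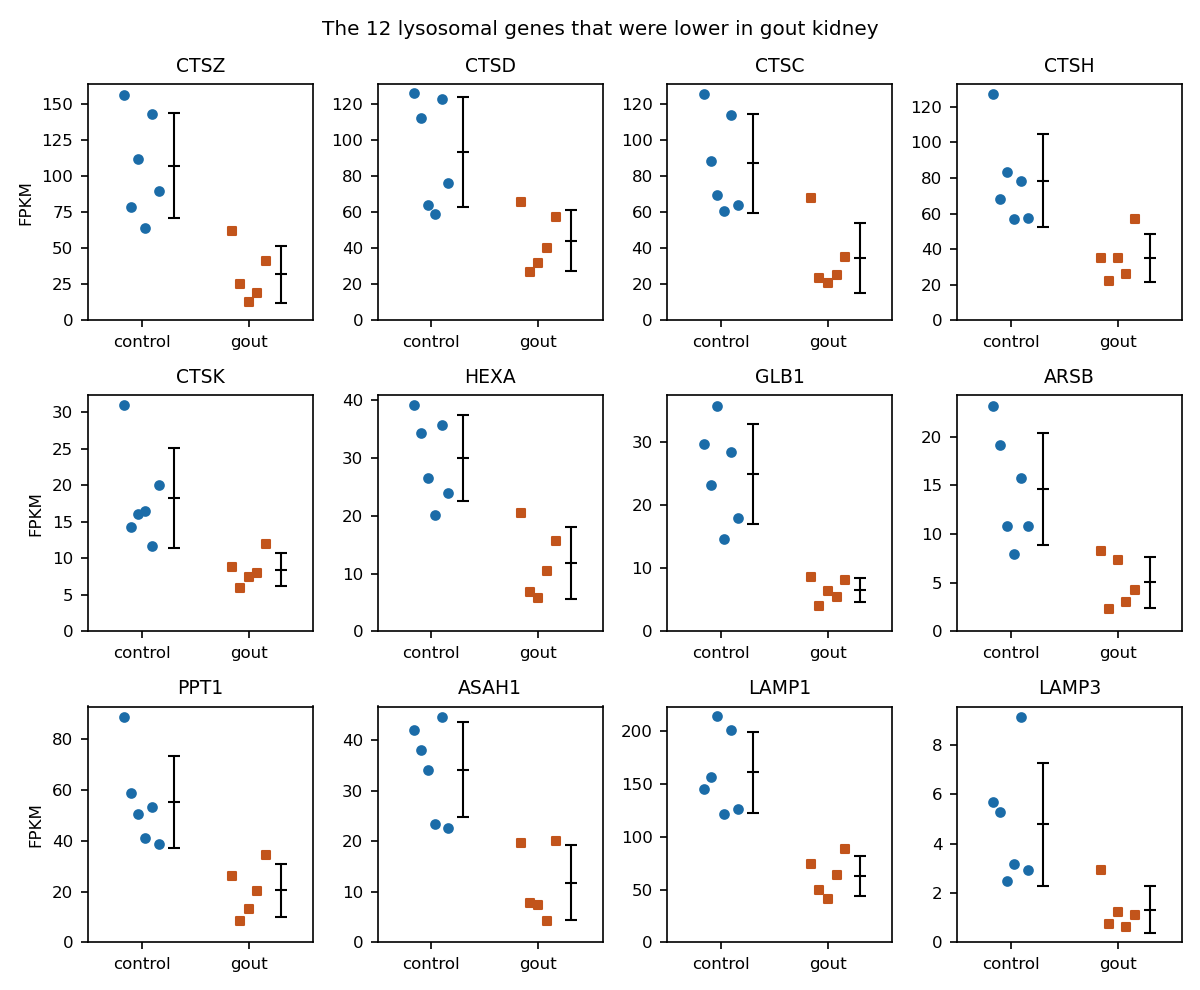
FPKM of the 12 lysosomal genes that fell in gout, on axes that start at 0, with 1 point per gosling (circles, 6 control; squares, 5 gout) and the mean ± SD beside each group. For CTSZ, GLB1, ASAH1, PPT1 and LAMP1 the groups do not overlap.

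Among the proteases, which degrade proteins to peptides and amino acids, 5 of 10 fell, with a class median log2 fold change of -0.92. CTSZ stood at 61.8, 24.9, 12.8, 18.9 and 41.4 FPKM in gout replicates 1 to 5 and at 64.0 (lowest), 101 (median) and 156 FPKM (highest) in control. Every gout value was below every control value, and gout replicate 1 came closest to the lowest control. The log2 fold change was -1.85 (SE 0.37, limma adjusted p = 0.0140), and the call was kept whichever gosling was left out and in all 3 rescaled fits (quantile, upper quartile and TPM). CTSC, dipeptidyl peptidase 1, which activates granule serine proteases of immune cells, had 68.0, 23.6, 20.9, 25.4 and 35.5 FPKM in gout, against 60.7, 79.0 and 125 in control (lowest, median and highest). Gout replicate 1 alone reached the control range. The log2 fold change was -1.39 (SE 0.32, limma adjusted p = 0.0226), and the call was lost without gout replicate 2, 3 or 4 or control replicate 5.

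CTSH, CTSD and CTSK, each with 4 of 5 gout libraries below all controls, completed the protease calls. CTSH, an aminopeptidase, went from 78.5 ± 26.2 to 35.1 ± 13.4 FPKM (SD, n = 6 and 5; limma adjusted p = 0.0284). CTSD, the main aspartic protease of the lysosome, went from 93.6 ± 30.5 to 44.4 ± 16.8 FPKM (limma adjusted p = 0.0467). CTSK, known in mammals as the collagen-degrading protease of osteoclasts, went from 18.3 ± 6.84 to 8.45 ± 2.26 FPKM (limma adjusted p = 0.0352). These calls depended on the setting. CTSH and CTSK were not called after quantile normalization (limma adjusted p = 0.0557 and 0.0925) or upper quartile scaling, and CTSD not after quantile normalization (0.0634). Without single goslings CTSD was called in 3, CTSK in 4 and CTSH in 6 of 11 fits.

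The other 5 proteases did not pass. CTSB, the most abundant member, had 261, 102, 56.1, 135 and 209 FPKM in gout and 174, 259 and 312 FPKM in control (lowest, median and highest), with a log2 fold change of -0.85 (SE 0.36, limma adjusted p = 0.150). Gout replicates 1 and 5 lay inside the control range and the other three below it. LGMN stood at 84.8 ± 58.3 FPKM in gout against 124 ± 51.5 in control, and was as high as 185 FPKM in gout replicate 5. CTSL, a broad cysteine endopeptidase, stood at 47.7 ± 22.4 and 65.2 ± 21.5 FPKM. TPP1, a tripeptidyl peptidase, stood at 83.6 ± 33.5 and 99.5 ± 15.1 FPKM, and the gout mean included 143 FPKM in replicate 5 beside 62.1 to 74.2 in the other four. CTSO, the least abundant cathepsin, stood at 1.31 ± 0.960 and 1.44 ± 0.569 FPKM.

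Of the glycosidases, which remove sugars from glycoproteins, glycolipids and glycosaminoglycans, 2 of 9 fell, and the class median was -0.44. GLB1, the beta-galactosidase, had 8.58, 3.98, 6.47, 5.41 and 8.07 FPKM in gout and 14.6, 25.8 and 35.8 in control (lowest, median and highest). The groups were apart, and the log2 fold change of -1.77 (SE 0.26, limma adjusted p = 0.00358) was the call with the smallest p among the 32 genes. This call too was kept in every fit with a gosling left out and in all 3 rescaled fits. The row is an assembled transcript of the authors with no RefSeq identifier. The same holds for the rows used for CTSZ, NAGLU, GM2A and TFEB. A second row, which holds the RefSeq transcripts of GLB1 together with those of the gene TMPPE, stood at 1.47 ± 1.11 FPKM in gout against 2.57 ± 1.35 in control (limma adjusted p = 0.301), so the fall of GLB1 was seen in the more abundant of the rows and did not pass in the other.

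HEXA, the alpha subunit of the beta-hexosaminidase that degrades the ganglioside GM2, had 20.6, 6.83, 5.86, 10.4 and 15.7 FPKM in gout against 20.2, 30.4 and 39.1 in control (lowest, median and highest). Gout replicate 1 just entered the control range. The log2 fold change was -1.37 (SE 0.31, limma adjusted p = 0.0221), with the call lost without gout replicate 2 or control replicate 5. FUCA1, an alpha-fucosidase, stood at 20.1 ± 9.70 FPKM in gout against 32.8 ± 6.22 in control (limma adjusted p = 0.0966), and GLA, an alpha-galactosidase, at 6.41 ± 2.46 and 11.2 ± 2.28 FPKM (0.0812). In both, 4 of 5 gout libraries lay below all controls. GUSB, the beta-glucuronidase, MANBA, the beta-mannosidase, GAA, which degrades glycogen, and IDUA, which acts on dermatan and heparan sulfate, had log2 fold changes from -0.44 to -0.37 and did not pass. NAGLU, another enzyme of heparan sulfate breakdown, had the single positive value of the 32 genes, 7.50 ± 3.22 FPKM in gout against 6.72 ± 2.91 in control (log2 fold change 0.14, limma adjusted p = 0.779); its less abundant row stood at 5.83 ± 1.90 and 6.49 ± 1.01 FPKM, and the sum of both rows gave -0.0080.

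The sulfatases, which take sulfate groups off glycosaminoglycans, were measured in 3 of 5 cases. ARSB, which acts on dermatan and chondroitin sulfate, fell. It had 8.22, 2.31, 7.37, 2.98 and 4.23 FPKM in gout against 7.97, 13.3 and 23.2 in control (lowest, median and highest), and gout replicate 1 alone exceeded the lowest control. The log2 fold change of -1.41 (SE 0.33, limma adjusted p = 0.0254) did not pass after quantile normalization (0.0701) or upper quartile scaling and was lost without gout replicate 2 or 4 and control replicate 1 or 5. IDS and SGSH, both of the heparan sulfate pathway, did not pass. IDS stood at 1.70 ± 0.817 FPKM in gout against 2.90 ± 0.578 in control (limma adjusted p = 0.114). SGSH stood at 20.6 ± 11.2 and 25.8 ± 5.15 FPKM, with 32.6 and 33.2 FPKM in gout replicates 1 and 4 and 11.1 to 13.2 in the others, so that gout libraries lay on either side of the control range of 18.1 to 32.5 FPKM. GAA, which RefSeq places beside SGSH in the Taihu goose assembly, did not pass either.

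In the lipid class 2 of 5 genes fell, with a class median of -1.04. ASAH1, the acid ceramidase, had 19.7, 7.72, 7.46, 4.22 and 20.0 FPKM in gout and 22.6, 36.2 and 44.7 in control (lowest, median and highest). The groups were apart, with gout replicates 1 and 5 close to the lowest controls, and the log2 fold change was -1.62 (SE 0.36, limma adjusted p = 0.0211). PPT1, which removes palmitate from proteins, had 26.3, 8.52, 13.0, 20.3 and 34.4 FPKM in gout and 38.7, 52.0 and 88.9 in control. Its groups were apart as well (log2 fold change -1.48, SE 0.33, limma adjusted p = 0.0213). Both calls were lost without gout replicate 2 or control replicate 5, and that of PPT1 also without gout replicate 3.

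GM2A, the activator that presents GM2 to hexosaminidase, stood at 23.5 ± 10.9 FPKM in gout against 46.8 ± 12.4 in control and did not pass (log2 fold change -1.04, limma adjusted p = 0.0608). It was called on the TPM scale and with its rows summed, and its less abundant row, at 8.75 ± 5.73 and 28.5 ± 15.0 FPKM, passed on the deposited scale (limma adjusted p = 0.0417) but not after quantile normalization (0.0542). The proteins that hand cholesterol out of the lysosome differed from each other in size of change. NPC2, the soluble carrier, stood at 72.5 ± 31.0 FPKM in gout against 144 ± 57.5 in control (log2 fold change -1.01, limma adjusted p = 0.0833), and NPC1, the membrane transporter it works with, at 3.27 ± 0.787 and 3.74 ± 0.796 FPKM (log2 fold change -0.15, limma adjusted p = 0.635). Neither passed, and the difference between them was not tested.

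Of the membrane proteins 2 of 4 fell, and the class median was -1.13. LAMP1, one of the main glycoproteins of the lysosomal membrane, had 74.1, 49.3, 40.9, 63.8 and 88.1 FPKM in gout and 122, 151 and 215 in control (lowest, median and highest). No gout library came near the control range, and the log2 fold change of -1.35 (SE 0.25, limma adjusted p = 0.0103) passed whichever gosling was left out and in all 3 rescaled fits. LAMP3, known in mammals as an inducible LAMP of mature dendritic cells, had 2.95, 0.726, 1.21, 0.644 and 1.11 FPKM in gout and 2.50, 4.23 and 9.11 in control. It fell by 1.29 on the log2 scale (limma adjusted p = 0.0268), with gout replicate 1 inside the control range, and did not pass after quantile normalization (0.0587) or without gout replicate 2, 3 or 4 or control replicate 1 or 5. LAMP2, which also serves chaperone-mediated autophagy, stood at 12.1 ± 6.94 FPKM in gout against 23.2 ± 7.27 in control (limma adjusted p = 0.0713); gout replicate 5, at 23.6 FPKM, lay above the control median of 20.8.

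MCOLN1, the calcium channel mucolipin 1, was the membrane gene with nearly the same level in both groups, 19.0 ± 4.39 FPKM in gout against 19.9 ± 3.72 in control (log2 fold change -0.07, SE 0.21, limma adjusted p = 0.845). TFEB stood at 12.8, 6.53, 4.91, 6.95 and 8.04 FPKM in gout and at 6.45, 9.96 and 13.7 in control (lowest, median and highest), with a log2 fold change of -0.36 (SE 0.25, limma adjusted p = 0.366). One gout library, replicate 3, lay below the control range. The directions of MCOLN1 and NPC1 turned positive after quantile normalization and upper quartile scaling, that of MCOLN1 also on the TPM scale, and that of CTSO after quantile normalization.

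**Figure D3:**
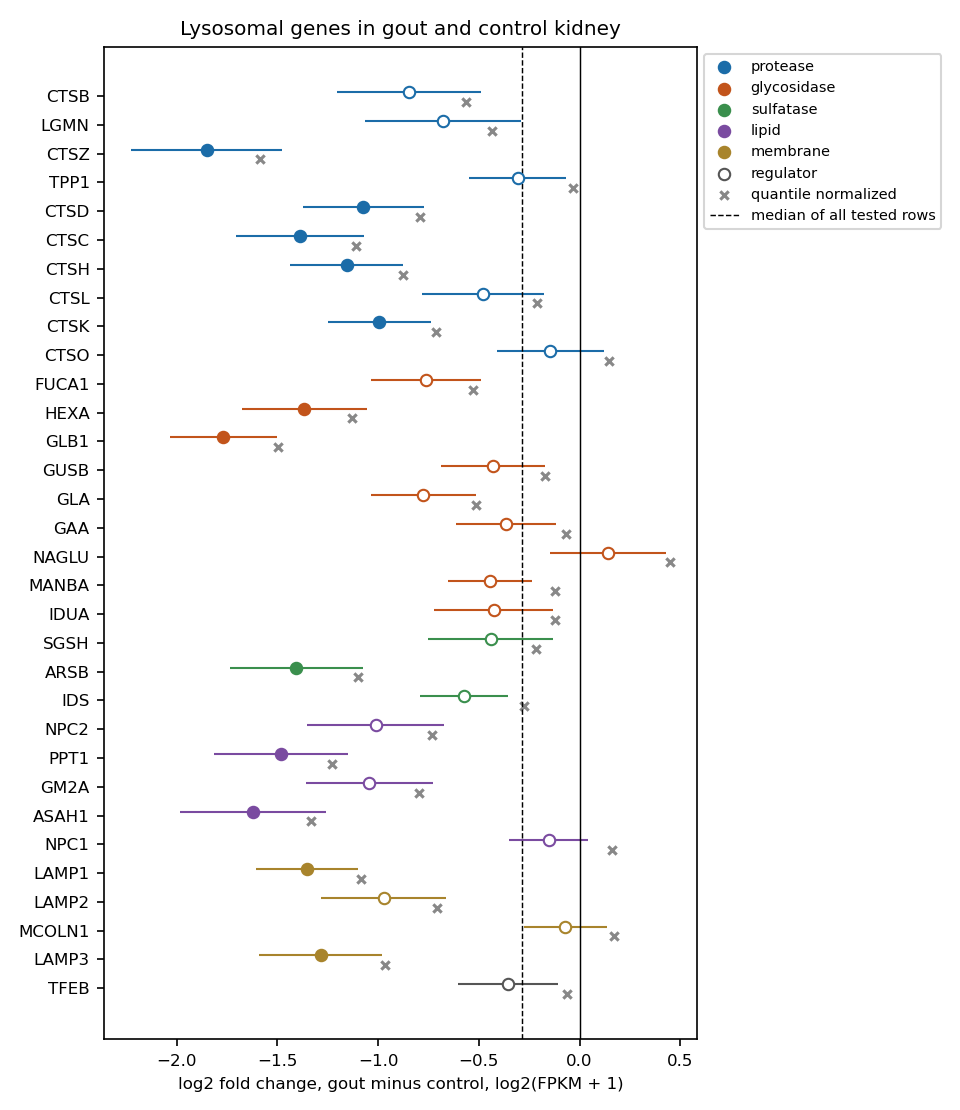
Log2 fold change of the 32 lysosomal genes, gout minus control, on the log2(FPKM + 1) scale (circles with SE, coloured by class; filled where limma passed, open where not) and after quantile normalization (grey crosses). The dashed line is the median of all tested rows, -0.29, and 28 of the 32 genes lie to its left.

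Symbols without a row of their own were looked up in the rest of the table, after the values had been seen. Of these 11, CTSA, SCARB2, ARSA and GALNS occurred in rows that the authors' assembly shares with another gene, whose reads cannot be separated. For PSAP and LIPA, rows were found only by their description in the deposited annotation, as proactivator polypeptide and as putative lysosomal acid lipase. Whether these rows are PSAP and LIPA was not checked. MAN2B1, NEU1, SMPD1, CD63 and GRN were not analysed here. The lipase row had 8.75, 4.05, 4.91, 5.85 and 5.66 FPKM in gout and 14.7 to 36.4 in control, without overlap (log2 fold change -1.60, SE 0.26, limma adjusted p = 0.00546). The row with SCARB2, the receptor that carries glucocerebrosidase to lysosomes, stood at 5.06 ± 2.17 FPKM in gout against 10.6 ± 2.36 in control, again without overlap (limma adjusted p = 0.0344). The other four did not pass. The proactivator polypeptide row stood at 34.0 ± 20.0 and 83.1 ± 45.1 FPKM (limma adjusted p = 0.0825). The row with CTSA stood at 62.4 ± 22.1 and 109 ± 39.5, that with ARSA at 17.5 ± 5.26 and 20.8 ± 2.21, and that with GALNS at 3.92 ± 1.44 and 5.45 ± 1.43 FPKM. These 6 rows are not in the counts above.

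Within the groups the goslings did not order the genes alike. Control replicate 1 held the highest value of all 11 goslings for 16 of the 32 genes, among them CTSB, CTSC, CTSD, CTSH, CTSK, CTSZ, HEXA, NPC2 and PPT1. Control replicate 3 was highest for LAMP1, LAMP2, GLB1, LGMN and CTSL, and control replicate 5 for MANBA, IDUA, IDS, ASAH1 and LAMP3. Control replicate 1 also had the highest summed macrophage markers and control replicate 5 the highest summed lymphocyte markers (641 FPKM). Control replicate 3 had the highest summed proximal tubule markers (2875 FPKM, against 583 to 1578 in the other controls). In gout, replicate 5 was the highest of all 11 goslings for TPP1, CTSO and NAGLU. It had the highest tubule sum of its group (1284 FPKM, against 486 to 692 in the others). Whether the marker sums bear on which genes were highest was not tested.

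Markers of macrophages and of several other cell types were also lower in gout kidney. Of 20 listed macrophage markers 9 had a row and 8 were tested, and 6 of them fell (75%, against 6.29% of all tested rows), with a median log2 fold change of -1.94; 2 were lower after quantile normalization (2% of all tested rows). MPEG1, a pore-forming protein of phagocytes, had 71.0, 5.82, 7.46, 13.5 and 4.17 FPKM in gout and 53.2, 97.1 and 238 in control (lowest, median and highest). The 8 markers other than CD74, which outweighs them all, summed to 30.7 to 215 FPKM in gout and 176 to 568 in control, and gout replicate 1, at 215, was the only gout library in the control range. LAPTM5, among the 8, is itself a lysosomal protein and stood at 10.3 to 57.6 FPKM in gout and 61.2 to 155 in control. No macrophage marker with a row stayed under 1 FPKM in every library, and the other 11 were not analysed here. Of 14 tested lymphocyte markers 12 fell (7 after quantile normalization), with sums of 22.9 to 198 FPKM in gout and 153 to 641 in control. Of 6 heterophil markers 3 fell (0 after quantile normalization), with sums of 12.3 to 57.9 FPKM in gout and 41.5 to 187 in control. Of 17 proximal tubule markers 4 fell (3 after quantile normalization), with sums of 486 to 1284 and 583 to 2875 FPKM. Their median log2 fold change was -0.74, with 8 lower and 0 higher at an unadjusted p under 0.05. Among 5 kidney transcription factors 0 passed in limma (0 also at an unadjusted p under 0.05). Markers of distal tubule and duct (5 of 16, and 3 after quantile normalization) and podocytes (1 of 7, and 0 after it) fell in part. The medians of these 2 lists were -0.77 and -0.46, with 9 and 2 markers lower and 0 higher at an unadjusted p under 0.05. Among 11 endothelial markers 0 passed in limma (4 lower and 0 higher at an unadjusted p under 0.05). The unadjusted counts of the marker lists have no background beside them and are description only. The part of these cell types in the lysosomal values was not tested.

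By gosling, the lysosomal share rose with the macrophage markers in some libraries and fell in others. In control replicates 4, 6, 2 and 5 the sums of the 8 markers were 176, 259, 334 and 337 FPKM. Their lysosomal shares rose in the same order, 0.356%, 0.413%, 0.462% and 0.542%. Control replicates 1 and 3 both had a share of 0.520%, at marker sums of 568 and 183 FPKM. Gout replicate 5 had the lowest sum of the 8 markers, 30.7 FPKM, and the highest lysosomal share in gout, 0.324%. From it through gout replicates 2, 4 and 3 the marker sums rose to 47.2, 56.7 and 79.1 FPKM. The lysosomal shares of these replicates fell in the same order, to 0.245%, 0.235% and 0.225%. Gout replicate 1 had a marker sum of 215 FPKM, above those of control replicates 3 and 4 (183 and 176), and a lysosomal share of 0.307%, below theirs (0.520% and 0.356%). In the same library, gout replicate 1, LAMP1 stood at 74.1 FPKM against a control minimum of 122, and GLB1 at 8.58 against 14.6. Of the genes called lower, CTSC, CTSD, HEXA, ARSB and LAMP3 lay inside the control range in gout replicate 1, and the rest below it. How the markers and the lysosomal share are related was not tested.

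**Figure D4:**
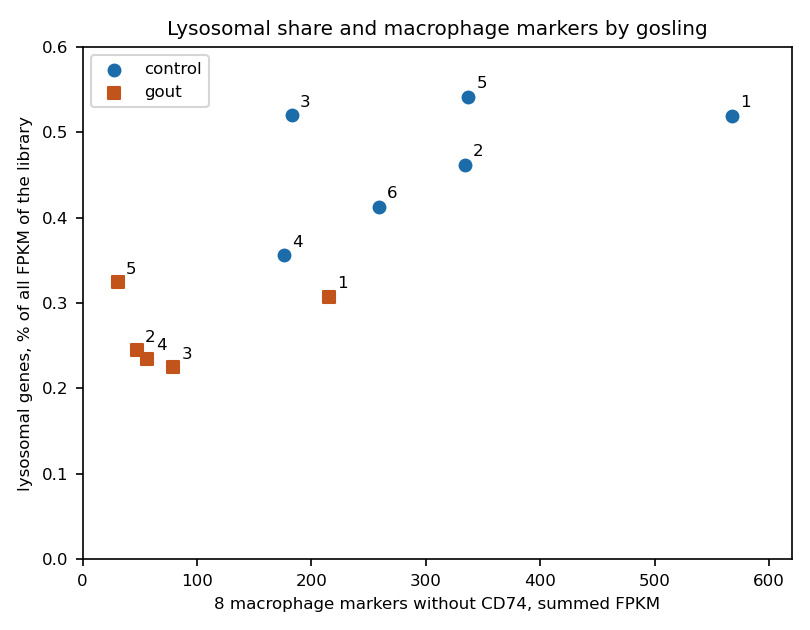
Share of the 32 lysosomal genes in all FPKM of a library (vertical axis, percent) against the summed FPKM of 8 macrophage markers without CD74 (horizontal axis), with 1 point per gosling (circles, 6 control; squares, 5 gout; digits, replicate numbers). All gout shares, 0.225% to 0.324%, lie below all control shares, 0.356% to 0.542%, and gout replicate 1 lies within the horizontal range of the controls.

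Other hydrolases of the lysosome fell in part. Of 27 tested in a list of 42 further hydrolases and their helpers, 8 fell (29.6%, against 6.29% of all tested rows) and 0 rose, with 15 lower and 0 higher at an unadjusted p under 0.05, and the median log2 fold change was -0.69. PLBD1, a phospholipase B-like protein, had 7.42, 5.41, 3.52, 5.78 and 10.1 FPKM in gout and 24.0, 25.0 and 48.1 in control (lowest, median and highest; limma adjusted p = 0.00177). NAAA, an amidase of fatty acid ethanolamides, went from 9.14 ± 3.28 to 1.86 ± 0.931 FPKM (limma adjusted p = 0.00358), and CTSS, a cathepsin of antigen-presenting cells, from 81.4 ± 30.9 to 22.8 ± 7.16 (0.00568). In each of these, named for the smallest p, the groups were apart, as in 5 of the 27 tested (4.55% of all tested rows). Each passed after quantile normalization, when 6 genes of the list were lower (2% of all tested rows). PRCP, SCPEP1, SMPDL3A and CTBS were among the others that fell. After quantile normalization SMPDL3A and CTBS did not pass (limma adjusted p = 0.0727 and 0.0750), while PRCP and SCPEP1 did. The unadjusted counts of the list have no background beside them and are description only.

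The remaining parts of the lysosomal system held few calls. Of 28 tested lysosomal transporters and membrane proteins 3 fell (10.7%, against 6.29% of all tested rows) and 0 rose. LAPTM5, a lysosomal protein of blood cells that is also in the macrophage list, went from 99.5 ± 37.1 to 27.8 ± 19.0 FPKM (limma adjusted p = 0.0138), OSTM1, the partner of the chloride carrier of lysosomes, from 4.37 ± 1.06 to 1.87 ± 0.813, and CLN6, a protein of the endoplasmic reticulum that serves the export of lysosomal enzymes, from 32.1 ± 4.66 to 18.0 ± 6.57. None of the 3 passed after quantile normalization (limma adjusted p = 0.0510, 0.0547 and 0.0557). Of 31 tested genes that sort proteins to lysosomes 2 fell and 0 rose. That share of 6.45% is close to the 6.29% of all tested rows. LITAF, a protein of late endosomes, was among the genes that fell. LITAF did not pass after quantile normalization (limma adjusted p = 0.0888).

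The proton pump list had 0 calls by limma among 18 tested genes, against 6.29% of all tested rows called lower. This pump acidifies lysosomes, but ATP6V1B1 and ATP6V0D2 are also among the distal tubule and duct markers above. The list is thus not one of lysosomal subunits alone. At an unadjusted p under 0.05, 9 genes of this list were lower and 1 higher, and the median was -0.57. The unadjusted counts in this paragraph have no background beside them and are description only. ATP6V1H had the smallest p, at 13.1 ± 3.34 FPKM in gout against 22.2 ± 4.28 in control (limma adjusted p = 0.0581). Of 16 tested genes of nutrient sensing and lysosomal gene control 0 passed in limma (2 lower and 0 higher at an unadjusted p under 0.05), and the median was -0.17, above that of all tested rows. RRAGC, a GTPase of the complex that recruits mTORC1 to lysosomes, had the smallest p there, at 6.23 ± 1.33 and 9.80 ± 0.918 FPKM (limma adjusted p = 0.0659). Among 27 tested autophagy genes 1 fell and 0 rose, with a median of -0.21. It was MAP1LC3B, a protein of the autophagosome membrane, at 11.2 to 14.2 FPKM in gout and 15.3 to 37.0 in control (limma adjusted p = 0.0444, and 0.119 after quantile normalization). The proton pump, nutrient sensing and autophagy lists are small, so their call counts do not set them apart from all tested rows.

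**Figure D5:**
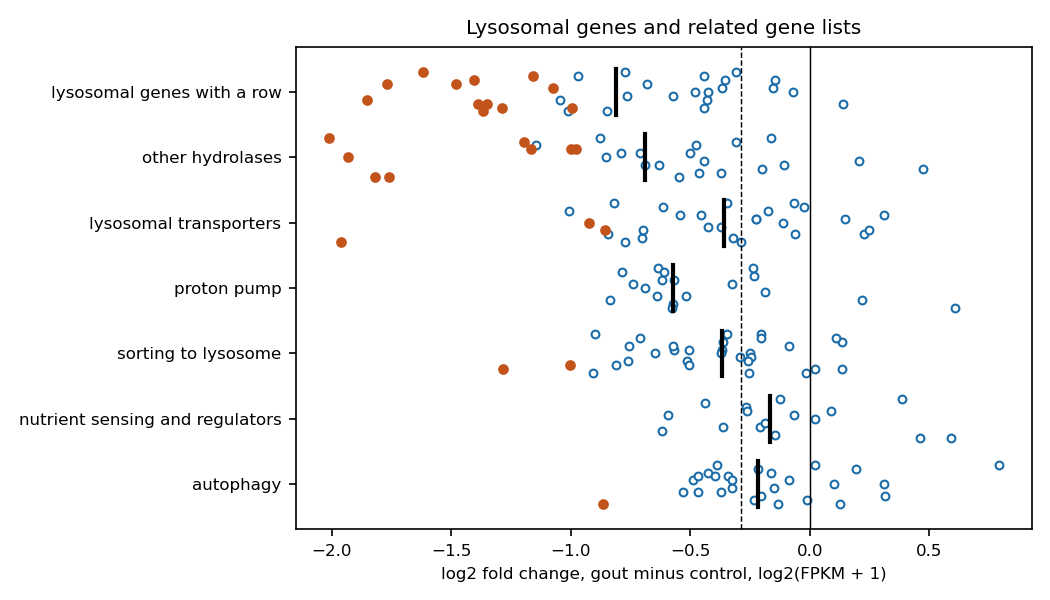
Log2 fold change, gout minus control, of each tested gene of the lysosomal set and of 6 lists of related genes (filled where limma passed, open where not), with the median of each list as a black bar. The dashed line is the median of all tested rows; the medians of the lysosomal set (-0.81), the further hydrolases (-0.69), the proton pump (-0.57), sorting (-0.37) and the transporters (-0.36) lie below it, and those of nutrient sensing (-0.17) and autophagy (-0.21) above it.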

How the data were processed

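Kidney RNA of 5 gout and 6 healthy goslings was analysed from the FPKM values that the authors deposited, 1 column per gosling matched by title. The submitters' processing notes name the aligner HISAT and the assembler StringTie; neither their versions nor a genome build is given in the sources used here. The labels' treatment text describes oxygen in water tanks, which cannot apply to goslings, and was left unused. A mention of adipose tissue in the labels, which differs from the kidney stated for the samples, was left unused as well. No fragment counts could be recovered: in 55 pairs of libraries at most 0.745% of rows with values under 0.5 FPKM shared a ratio. Same-numbered libraries mostly did not deviate together (r from -0.09 to 0.24 over 5 pairs, with only pair 1 over 0.1), so no pairing was used.

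Values were taken as log2(FPKM + 1), with a pseudocount of 1. The rows that reached 1 FPKM in 5 or more of the 11 libraries were tested with limma 3.58.1 in R 4.3.3 (trend, two-sided, Benjamini-Hochberg over 12252 rows, threshold 0.05). Tables and figures used Python 3.11.15, pandas 2.3.3 and matplotlib 3.10.9. The steps were tested on simulated data, in which 26.3% of 2-fold and 83.3% of 4-fold changes of abundant rows were recovered. The simulated rows varied independently and changed in either direction, without the shifts of whole libraries seen here. Recovery in the real data, and for genes of low level, may differ from these rates. A gene that did not pass may therefore still differ 2-fold. The members, the related lists and the markers were chosen with earlier results of these data known. Named genes were all members and, of each related list, the 3 calls with the smallest p or the gene with the smallest p; PRCP, SCPEP1, SMPDL3A and CTBS were added after their values were seen. The design text describes the samples as separate goslings, so p-values measure the spread between animals. No sequences of this organism were used here. A few genes that enter the counts are not reported here by name.

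The fit was repeated with each gosling left out, on TPM, after upper quartile or quantile normalization, with array weights, with robust empirical Bayes, with the replicate number as a block, with the rows of a symbol summed, with a pseudocount of 0.01 or 0.1, and with the filter raised to 5 FPKM or dropped. Leaving out gout replicates 2 and 3 together was added after the data were seen.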

Additional observations from a re-analysis of the deposited data

Results flagged for a closer look

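The gout and control values of each named gene, taken as log2(FPKM + 1), were searched for a single library set apart by a wide gap, which chance alone gives in about 1 of 20 groups; 2 of 86 groups held one. TPP1, the tripeptidyl peptidase, was high in gout replicate 5, at 143 FPKM with the next gout library at 74.2. PLBD1, the phospholipase B-like protein, was high in control replicate 1, at 48.1 FPKM with the next control at 25.4.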

How the results depend on the processing

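The lysosomal genes called lower numbered 12, and 10 to 15 under every alternative that kept all libraries except quantile normalization (7) and upper quartile scaling (9); 0 were called higher in any. With the replicate block 11 were lower, CTSK being lost, and no other call of a member changed; 1 of 5 same-numbered pairs correlated best with its own number. With single goslings left out the count ranged from 3 to 16, the median of the 32 genes from -1.01 to -0.65, the 14 calls in the related lists from 5 to 34, and the 856 rows called in all from 301 to 1461. Without gout replicates 2 and 3 these were 1, -0.41, 3 and 161. Rows called in all were 450 with the filter of 5 FPKM, 471 after quantile normalization and 523 with upper quartile scaling, and calls in the related lists were 9 without a filter, 6 after quantile normalization and 8 with upper quartile scaling. Reversed directions all concerned genes that were not called. These were CTSO (0.15), NPC1 (0.16) and MCOLN1 (0.17) after quantile normalization, NPC1 (0.039) and MCOLN1 (0.17) with upper quartile scaling, MCOLN1 (0.073) on the TPM scale, NAGLU (-0.0080) with summed rows, and NPC1 (0.035) and MCOLN1 (0.068) without gout replicates 2 and 3. With single goslings left out, CTSO ranged from -0.34 to 0.022 (positive without gout replicate 3), NAGLU from -0.054 (without gout replicate 5) to 0.30, and MCOLN1 from -0.19 to 0.012 (positive without gout replicate 3 or control replicate 1). The cause of these changes was not tested. The number of goslings and the unknown depth limit all of these values.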

Other observations

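A few related genes outside the 43 symbols were picked out after their values were seen. SQSTM1, the autophagy receptor p62, split the gout kidneys: it stood at 1052 FPKM in replicate 4 and 305 in replicate 1, at 82.7 in replicate 5, and at 40.8 and 41.4 in replicates 2 and 3, while all 6 controls lay between 66.6 and 91.2 FPKM. Gout replicates 1 and 4 were thus above and gout replicates 2 and 3 below the control range, and limma did not call the gene (log2 fold change 0.79, SE 0.68, adjusted p = 0.471). ATP6V0A1, a membrane subunit of the proton pump, was the subunit with a higher value at an unadjusted p under 0.05, at 42.2 and 46.3 FPKM in gout replicates 4 and 5 and 19.2 to 21.9 in the other gout kidneys, against 12.8 to 24.9 FPKM in control (limma adjusted p = 0.180).

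CTSE, an aspartic protease of endosomes that lay under the filter on low values of the deposited scale, stood at 0.589 to 1.41 FPKM in gout and 0 to 0.226 FPKM in control, so that all 5 gout libraries lay above all 6 controls. On the TPM scale it passed the filter through its gout libraries alone, so the test there cannot be used as support. The values are given as a description only.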
